A study of Mus musculus with 9 samples.

Results

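Lrp2, Nkx2-3, Fabp3, Kctd12, Begain, Prkcb, Htra3 and Negr1 are genes whose expression stood far apart between reprogramming fibroblasts with and without a hairpin against Hnrnpk. They are 8 of the 12550 genes in the deposited table, found by symbol, and each symbol has 1 entry. They were chosen by their measured signal, as genes in which the Hnrnpk hairpin cells differed strongly from the luciferase hairpin cells on each sampling day, so those differences are given as a description without a test. The first 3 were higher with the Hnrnpk hairpin and the other 5 were lower.

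The cells were mouse embryonic fibroblasts (MEFs, strain C57Bl/6cJ) on their way to induced pluripotent stem cells. All groups received plasmids with Oct4, Sox2, Klf4 and c-Myc and grew in serum-containing embryonic stem cell medium with leukemia inhibitory factor. The groups were cells with a pretroSuper hairpin against Hnrnpk, cells with one against Trp53cor1 (lincRNA-p21), and control cells with one against luciferase, a gene mouse cells lack. Each of the 3 arms was sampled on days 6, 9 and 12, with 1 RNA sequencing library per arm and day (9 libraries), and each library is labelled as merged replicates. Each target has 1 arm, so effects of a hairpin beyond its target cannot be told apart from loss of the target. The labels call the cells partially reprogrammed.

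hnRNP K is an RNA- and DNA-binding protein with KH domains that prefers cytosine-rich strands and acts in transcription, splicing, mRNA stability and translation. It is also known as a partner of lincRNA-p21, a p53-induced long non-coding RNA, in repressing genes. During reprogramming, fibroblasts lose mesenchymal expression, gain epithelial genes and later activate the pluripotency network. The 8 genes encode an endocytic receptor, a homeobox factor, a lipid carrier, a receptor-associated subunit, a synaptic scaffold partner, a signalling kinase, a secreted protease and an adhesion protein.

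The hairpin targets were read first. Hnrnpk had a normalised signal of 11349, 17016 and 12793 on days 6, 9 and 12 with the Hnrnpk hairpin, 31142, 29972 and 27873 with the lincRNA-p21 hairpin, and 31243, 26944 and 23376 with the control hairpin. Trp53cor1 had 131, 137 and 119.5 with the Hnrnpk hairpin, 90.5, 122 and 97 with the lincRNA-p21 hairpin, and 286.5, 237 and 250 with the control hairpin. Both targets were thus lower in their own arm than in the control on all 3 days, and Trp53cor1 was lower with the Hnrnpk hairpin too. How many reads each library holds is unknown, because the deposited values were already brought to nearly equal totals (spread 0.0252%). The 12 fibroblast markers checked all had values, and none was at 0 in every library.

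The 8 genes are all protein-coding and lie on 8 different chromosomes (GENCODE M21, build GRCm38, which is mm10). Promoter windows are shown because hnRNP K is known to bind the CT-rich element of the MYC promoter, whose core holds the letters CCCTCCC. All 8 genes have RefSeq windows of 300 bases (250 before and 50 after an annotated start, GRCm38.p6), 12 windows in all because Begain has several starts. The letters CCCTCCC, or GGGAGGG for the other strand, were found in 5 of the 12 windows, from 5 of the 8 genes. Among all genes with windows 23.8% hold the letters (22% of all windows). The windows of the 8 genes are richer in G and C than most, with 53.7% to 81.3% in the 12 windows against a median of 52.7% over all windows. Shown are the genes with the largest positive and negative mean log2 difference when 10 is added to the signal, Lrp2 and Kctd12 (with 1 added Nkx2-3 exceeds Lrp2, and with 50 added Begain exceeds Kctd12), and the windows that hold the letters, 5′ to 3′ on the strand of the gene. Capitals mark the letters found.
Lrp2 (chr2:69585980-69586279, minus strand): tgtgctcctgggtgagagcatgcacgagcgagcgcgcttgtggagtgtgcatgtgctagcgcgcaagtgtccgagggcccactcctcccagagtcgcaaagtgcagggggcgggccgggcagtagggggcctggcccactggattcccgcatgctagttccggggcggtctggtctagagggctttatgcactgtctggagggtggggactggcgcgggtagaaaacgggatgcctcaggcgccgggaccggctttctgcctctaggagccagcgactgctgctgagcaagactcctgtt
Fabp3 (chr4:130308488-130308787, plus strand): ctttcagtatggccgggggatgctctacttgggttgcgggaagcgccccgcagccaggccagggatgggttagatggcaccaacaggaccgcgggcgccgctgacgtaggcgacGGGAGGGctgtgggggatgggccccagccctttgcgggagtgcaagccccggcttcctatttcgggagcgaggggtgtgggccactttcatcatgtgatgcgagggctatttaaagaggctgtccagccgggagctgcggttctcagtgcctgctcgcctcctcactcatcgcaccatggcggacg
Kctd12 (chr14:102982588-102982887, minus strand): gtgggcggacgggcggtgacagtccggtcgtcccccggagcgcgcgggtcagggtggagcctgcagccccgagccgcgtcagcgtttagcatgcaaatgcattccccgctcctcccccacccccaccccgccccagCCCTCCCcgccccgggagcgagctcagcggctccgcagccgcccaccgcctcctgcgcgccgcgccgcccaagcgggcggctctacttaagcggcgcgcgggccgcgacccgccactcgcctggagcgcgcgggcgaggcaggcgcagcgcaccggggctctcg
Begain (chr12:109053049-109053348, minus strand): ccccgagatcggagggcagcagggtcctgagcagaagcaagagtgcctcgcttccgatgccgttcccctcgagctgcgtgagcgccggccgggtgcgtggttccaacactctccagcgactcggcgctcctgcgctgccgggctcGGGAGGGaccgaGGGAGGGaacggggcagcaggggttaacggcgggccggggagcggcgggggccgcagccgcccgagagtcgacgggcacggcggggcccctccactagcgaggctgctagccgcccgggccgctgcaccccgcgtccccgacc
Prkcb (chr7:122288875-122289174, plus strand): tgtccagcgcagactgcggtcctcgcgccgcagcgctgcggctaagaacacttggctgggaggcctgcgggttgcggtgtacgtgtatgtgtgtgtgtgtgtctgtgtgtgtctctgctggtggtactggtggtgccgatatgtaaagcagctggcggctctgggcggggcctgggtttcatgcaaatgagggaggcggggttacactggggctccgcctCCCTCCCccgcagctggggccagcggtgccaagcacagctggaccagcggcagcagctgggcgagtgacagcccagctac
Negr1 (chr3:156561544-156561843, plus strand): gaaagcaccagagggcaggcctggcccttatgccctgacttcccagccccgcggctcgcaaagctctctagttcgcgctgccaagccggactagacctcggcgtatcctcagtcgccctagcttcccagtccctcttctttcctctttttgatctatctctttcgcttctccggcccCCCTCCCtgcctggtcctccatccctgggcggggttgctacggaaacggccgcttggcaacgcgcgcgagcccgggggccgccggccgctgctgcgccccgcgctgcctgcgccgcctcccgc

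The match begins 136 bases before the start in Fabp3, 114 in Kctd12, 30 in Prkcb and 73 in Negr1. In Begain both matches, at 105 and 93 bases before the start, are in the window of the fifth listed start and read on the other strand. Lrp2, Nkx2-3 and Htra3 have no match in their windows. The letters are thus in windows of 1 of the 3 higher genes and 4 of the 5 lower ones. A match here is a run of letters and no measured binding site.

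Values are the authors' normalised signal. Differences between arms are log2 values with 10 added to each signal first, which understates the change of genes with low signal. The mean over the 3 days is given with its SD. In bulk RNA, fewer cells that express a gene and less RNA per cell cannot be told apart.

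Lrp2 encodes megalin, an endocytic receptor of absorptive epithelia that takes up lipoproteins, vitamin carriers and signalling ligands. Its signal was 1409, 459.5 and 863 on days 6, 9 and 12 with the Hnrnpk hairpin, 342.5, 117 and 230 with the lincRNA-p21 hairpin, and 121, 65 and 100 with the control hairpin. The lowest Hnrnpk library lay above every library of the other arms. The difference between the Hnrnpk and control arms was 3.02 ± 0.40 (SD, n = 3 days), or 8.13-fold. The lincRNA-p21 arm stood above the control on each day as well, by 1.43, 0.76 and 1.13.

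Nkx2-3 encodes a homeobox transcription factor of gut mesenchyme and spleen. Its signal was 196, 176.5 and 192 with the Hnrnpk hairpin, 15, 17 and 11.5 with the lincRNA-p21 hairpin, and 15, 18 and 14.5 with the control hairpin. Here the Hnrnpk arm stood alone: the other arms overlapped, with differences of 0, -0.05 and -0.19 between them on the 3 days. Set against control, the Hnrnpk arm differed by 2.94 ± 0.18 (SD, n = 3 days). Because the control signal is close to the added 10, that mean was 3.49 with 1 added and 1.85 with 50 added. The plain ratios of Hnrnpk to control signal were 13.1, 9.81 and 13.2.

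Fabp3 encodes the heart-type fatty acid-binding protein, a cytosolic carrier of long-chain fatty acids. Its signal was 704.5, 211 and 782 with the Hnrnpk hairpin, 320, 85.5 and 129.5 with the lincRNA-p21 hairpin, and 123.5, 51.5 and 46 with the control hairpin. Every Hnrnpk library lay above every control library, whereas the day 9 Hnrnpk library lay below the day 6 lincRNA-p21 library. The differences between the Hnrnpk and control arms were 2.42, 1.85 and 3.82, the widest spread over days among the 3 higher genes (mean 2.70 ± 1.02, SD, n = 3 days). The lincRNA-p21 arm differed from control by 1.31, 0.63 and 1.32.

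Among the lower genes, Kctd12, an auxiliary subunit of GABA-B receptors, had the largest mean difference with 10 added, ahead of Begain, and the least even one. Its signal was 0.5, 77.5 and 0.5 with the Hnrnpk hairpin, 1.5, 291.5 and 56.5 with the lincRNA-p21 hairpin, and 239, 306.5 and 86.5 with the control hairpin. Both knockdown arms were near 0 on day 6, and on day 9 the lincRNA-p21 library was close to the control library. The difference between the Hnrnpk and control arms was -3.21 ± 1.36 (SD, n = 3 days), -5.05 with 1 added and -1.81 with 50 added, where Begain was at -1.90.

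The Kctd12 locus holds a second annotated gene. A long non-coding RNA gene, listed in the table as AC102815.1 (Gm26778 in M21), lies on the other strand at chr14:102978220-102982528, inside Kctd12 at chr14:102976581-102982637, and covers 71.1% of it. No source used here says whether reads were counted by strand, so reads of the 2 genes may not have been told apart. AC102815.1 had a signal of 618, 225.5 and 179.5 with the Hnrnpk hairpin, 593, 289.5 and 201 with the lincRNA-p21 hairpin, and 728, 116 and 256 with the control hairpin. The sum of both genes was 618.5, 303 and 180 with the Hnrnpk hairpin, 594.5, 581 and 257.5 with the lincRNA-p21 hairpin, and 967, 422.5 and 342.5 with the control hairpin. With the sum in place of Kctd12, the difference between the Hnrnpk and control arms was -0.66 ± 0.21 (SD, n = 3 days), so the sum was lower on every day but by much less than the Kctd12 entry alone. The identifier of the Kctd12 entry is not one of M21, and its position was taken from the symbol.

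Begain encodes a guanylate kinase-associated protein that binds PSD-95 at synapses. Its signal was 186, 483 and 554 with the Hnrnpk hairpin, 379, 927.5 and 1323 with the lincRNA-p21 hairpin, and 911, 1900 and 2074 with the control hairpin. The 3 arms kept the same order on each day, with the lincRNA-p21 arm between the others. Set against control, the Hnrnpk arm differed by -2.02 ± 0.18 (SD, n = 3 days), with 4.90-fold, 3.93-fold and 3.74-fold lower signal on days 6, 9 and 12. The lincRNA-p21 arm differed from control by -1.24, -1.03 and -0.64.

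Prkcb encodes protein kinase C beta, a calcium- and diacylglycerol-activated kinase. Its signal was 196, 268 and 158.5 with the Hnrnpk hairpin, 668.5, 967 and 619.5 with the lincRNA-p21 hairpin, and 960, 811 and 678.5 with the control hairpin. The highest Hnrnpk library lay well under the lowest of the other arms, which overlapped each other. The difference between the Hnrnpk and control arms was -1.94 ± 0.35 (SD, n = 3 days). Between the lincRNA-p21 and control arms it was -0.52, 0.25 and -0.13 on the 3 days, with no common direction.

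Htra3 encodes a secreted serine protease of the HtrA family. Its signal was 62, 33.5 and 42.5 with the Hnrnpk hairpin, 218, 171 and 121.5 with the lincRNA-p21 hairpin, and 139.5, 185 and 186 with the control hairpin. The Hnrnpk libraries were below all others, and the lincRNA-p21 arm crossed the control, above it on day 6 and below it on days 9 and 12. Set against control, the Hnrnpk arm differed by -1.71 ± 0.58 (SD, n = 3 days), smallest on day 6 (-1.05).

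Negr1 encodes a GPI-anchored adhesion protein of the IgLON family, known from neurons. Its signal was 127.5, 80 and 55 with the Hnrnpk hairpin, 257, 199.5 and 177 with the lincRNA-p21 hairpin, and 326, 294 and 255.5 with the control hairpin. The Hnrnpk libraries did not overlap the others, and the lincRNA-p21 library was below the control library on each day, with differences of -0.33, -0.54 and -0.51. The difference between the Hnrnpk and control arms was -1.69 ± 0.37 (SD, n = 3 days), and it was -1.29, -1.76 and -2.03 on days 6, 9 and 12.

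**Figure D1:**
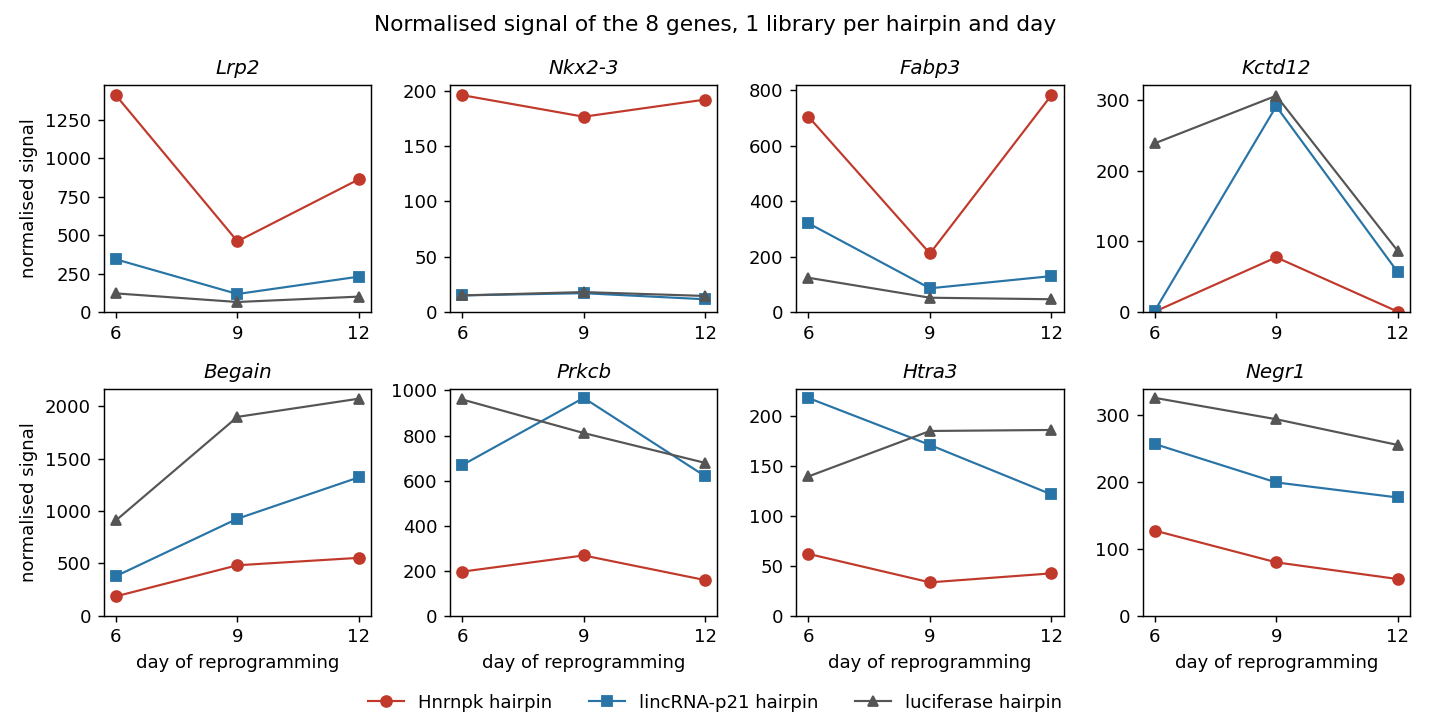
Normalised signal (vertical axis, from 0, own scale per gene) against day of reprogramming for the 8 genes, with 1 point per library and no error bar. Lines join the Hnrnpk hairpin (red circles), lincRNA-p21 hairpin (blue squares) and luciferase hairpin (grey triangles) libraries: Nkx2-3 stands at 176.5 to 196 with the Hnrnpk hairpin and at 11.5 to 18 in the other arms.

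Markers of cell types that the cultures could hold were read as lists beside these genes, with calls from limma with Benjamini-Hochberg, by which 5.58% of all genes were higher and 6.94% lower with the Hnrnpk hairpin. Of 11 epithelial markers with values (of 12) 6 rose and none fell. Their summed signal on days 6, 9 and 12 was 5537.5, 25003.5 and 45434 with the Hnrnpk hairpin, 2785.5, 13555.5 and 22858 with the lincRNA-p21 hairpin, and 4547.5, 16451 and 24107 with the control hairpin, so it was highest with the Hnrnpk hairpin on each day. Of 12 pluripotency markers 6 rose (Utf1, Sall4, Lin28a, Esrrb, Dppa5a and Tdgf1) and Sox2 fell. Their sum is mostly Pou5f1 and Sox2, which the delivered plasmids also encode, and it was 30851.5 to 65695 with the Hnrnpk hairpin, 35331 to 69170 with the lincRNA-p21 hairpin, and 47443.5 to 108585 with the control hairpin. Without those genes the sum of the other 10 on days 6, 9 and 12 was 745, 6321.5 and 11454.5 with the Hnrnpk hairpin, 551, 2815.5 and 7485 with the lincRNA-p21 hairpin, and 533.5, 1531.5 and 1731 with the control hairpin. It too was highest with the Hnrnpk hairpin on each day. On day 6 its lead over the control came largely from Fgf4, at 414 against 224, which did not pass (limma adjusted p = 0.0619). Nanog was lower with the Hnrnpk hairpin on that day, at 143 against 179.5. Lin28a (0 against 1) and Dppa5a (0.5 against 1) were then near 0 in both arms.

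Of 8 neural markers with values (of 12) 3 rose (Nefl, Nefm and Tubb3) and none fell. Without Stmn2, which makes up most of it, the neural sum on days 6, 9 and 12 was 6544.5, 3619.5 and 2894 with the Hnrnpk hairpin, 7751, 3633.5 and 2787.5 with the lincRNA-p21 hairpin, and 4112, 2315.5 and 2241 with the control hairpin. With Stmn2 it was 14776.5 to 24456.5, 15409.5 to 47834.5 and 14817.5 to 32041 in the Hnrnpk, lincRNA-p21 and control arms. Of 5 skeletal and cardiac muscle markers (of 12) 2 rose and 1 fell, with sums of 575 to 1079.5, 535 to 753 and 428.5 to 1062.5 in the same order of arms. Of 12 fibroblast markers 1 rose and none fell, with sums of 227827.5 to 383847.5, 278976 to 401000 and 290572 to 349190.5. The fibroblast sums are mostly Vim and Col1a2. Col1a2 was at 118715, the highest value in the data, in every lincRNA-p21 and control library, and Vim was there on day 6 in all arms. These sums therefore cannot show how the fibroblast content differed. None of the macrophage (2 of 12 with values), endothelial (4 of 12) and adipocyte (3 of 12) markers passed by limma, with 1, 0 and 0 at an unadjusted p under 0.05. Macrophage sums were 2354 to 4326.5, 2069 to 2511 and 1927 to 2775.5, endothelial sums 2342.5 to 2859, 2228.5 to 3073.5 and 2452 to 3426.5, and adipocyte sums 288.5 to 574.5, 267 to 509.5 and 320.5 to 461.5 in the Hnrnpk, lincRNA-p21 and control arms. The other markers of these lists, among them Ptprc, Pecam1 and Adipoq, which define those types, had no single entry found by symbol. They were therefore not analysed here. The part of these cell types in the differences of the 8 genes was not tested.

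For all 8 genes the 3 Hnrnpk libraries lay entirely above or below the 3 control libraries, which the choice of the genes favours and so cannot test. Over all 12541 genes with a mean signal of at least 20, the Hnrnpk libraries lay entirely above the control libraries in 6.87% and entirely below in 8.52%. Differences of at least 2-fold on each of the 3 days, which all 8 genes had, were seen in 0.726% of genes in the higher and 0.303% in the lower direction. The sum of Kctd12 and AC102815.1 stayed under 2-fold, at -0.64, -0.47 and -0.89 on days 6, 9 and 12.

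The lincRNA-p21 and control libraries overlapped for all 8 genes, where 4.31% of all genes lay entirely higher and 4.21% entirely lower with the lincRNA-p21 hairpin. Between the Hnrnpk and lincRNA-p21 libraries there was no overlap for Lrp2, Nkx2-3, Prkcb, Htra3 and Negr1, where 4.78% of all genes lay entirely higher and 6.57% entirely lower with the Hnrnpk hairpin.

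The genes were ranked by the smallest of their 3 daily differences between the Hnrnpk and control arms. Nkx2-3 and Lrp2 were first and second among the 2513 genes that were higher on all days, with smallest differences of 2.74 and 2.65, and Fabp3 was number 8 with 1.85. Of the 8 genes down to Fabp3, 5 are others, and the next gene below it had 1.79. Among the 2932 genes lower on all days Begain was number 2, the Kctd12 entry alone number 3, Prkcb number 4, Negr1 number 7 and Htra3 number 30. Of the 30 genes down to Htra3, 25 are others, and the next had the same 1.05 after rounding. The 8 genes are therefore examples from each end and no complete set.

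**Figure D2:**
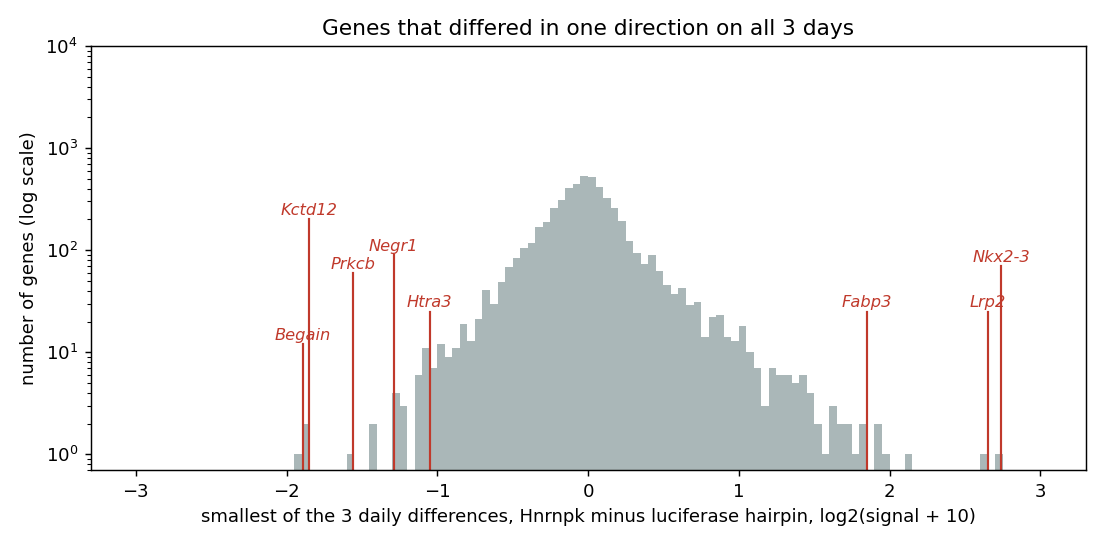
Number of genes (log scale) by the smallest of the 3 daily differences between the Hnrnpk and luciferase hairpin arms, in log2 of signal plus 10, for genes that differed in 1 direction on all days. Red lines, whose height has no meaning, mark the 8 genes: Nkx2-3 (2.74) and Lrp2 (2.65) lie at the right end and Begain (-1.89) and Kctd12 (-1.85) near the left end.

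The lincRNA-p21 arm shares the control libraries that were used to choose the genes, so its differences are also given without a test. It lay between the Hnrnpk and control arms on all 3 days for Lrp2, Fabp3, the Kctd12 entry, Begain and Negr1, 5 of the 8 genes. For the sum of Kctd12 and AC102815.1 it lay outside them on days 6 and 9. There the sum differed from control by -0.69 and 0.45 with the lincRNA-p21 hairpin, against -0.64 and -0.47 with the Hnrnpk hairpin. Among the 129 genes at least 2-fold apart between the Hnrnpk and control arms on every day, the lincRNA-p21 signal lay between them on every day in 69.8%, which is the background for 5 of 8. The difference of the lincRNA-p21 arm from control, as a percentage of that of the Hnrnpk arm on days 6, 9 and 12, was 41.5%, 28.7% and 37.7% for Lrp2 and 55.7%, 52.5% and 34.2% for Begain. It was 25.7%, 30.6% and 24.9% for Negr1 and 53.9%, 34.4% and 34.5% for Fabp3. For Kctd12 it was 97.1%, 3.8% and 16.8%. For Nkx2-3, Prkcb and Htra3 it changed sign between days or stayed within 6.2% of 0.

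**Figure D3:**
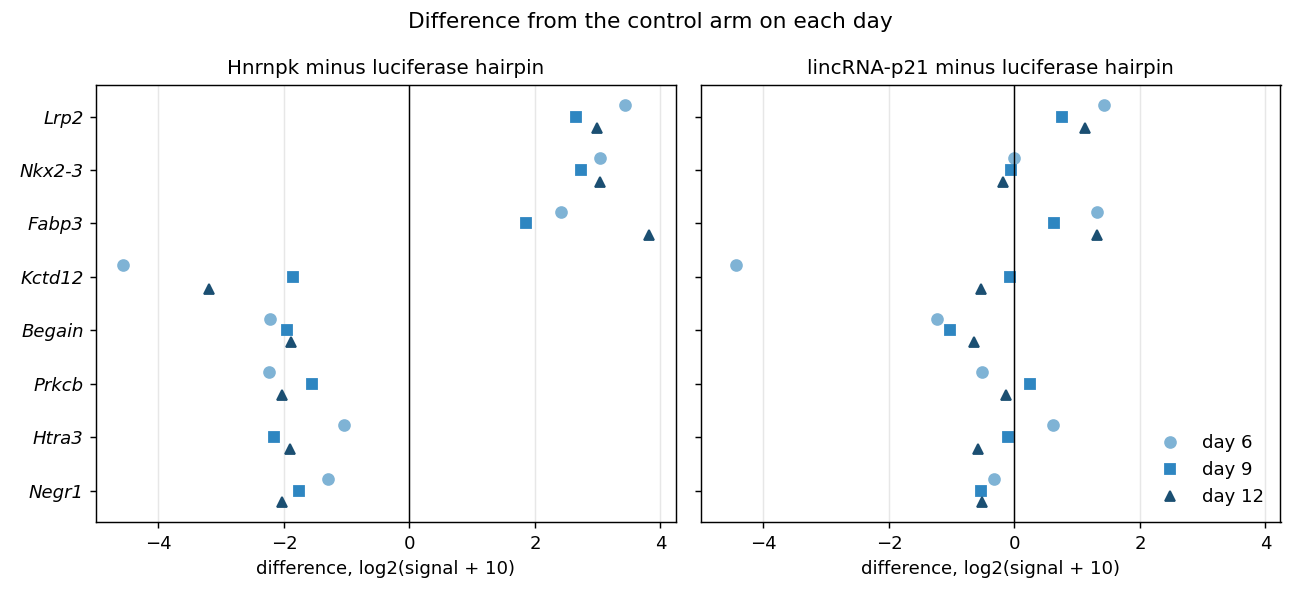
Differences from the luciferase hairpin arm in log2 of signal plus 10 (horizontal axis) for the 8 genes, with 1 point per day and no error bar, for the Hnrnpk hairpin (left) and the lincRNA-p21 hairpin (right). On the left no gene crosses 0, and on the right Prkcb (-0.52 to 0.25) and Htra3 (-0.58 to 0.61) lie on both sides.

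Set directly against the lincRNA-p21 arm, the Hnrnpk arm was at least 2-fold apart on every day for 5 of the 8 genes. Over all genes tested 0.319% were so in the higher and 0.0797% in the lower direction, and the Hnrnpk libraries used here are those that chose the genes. The mean differences were 1.92 ± 0.08 for Lrp2, 3.02 ± 0.22 for Nkx2-3, and 1.61 ± 0.78 for Fabp3 (SD, n = 3 days each). Prkcb stood at -1.81 ± 0.09 and Htra3 at -1.68 ± 0.37 (SD, n = 3 days each). The difference was smaller for Negr1 (-1.23 ± 0.28) and Begain (-1.05 ± 0.17), and for Kctd12 it was -0.13, -1.78 and -2.66 on days 6, 9 and 12. The ratio of Hnrnpk to lincRNA-p21 signal for Lrp2 was 4.11, 3.93 and 3.75 on the 3 days, the most even of the 8 genes by the SD of the log2 difference.

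Changes over time were tested with limma over all 12541 genes. The day terms of the model average over the arms, so their size does not use the arm differences that chose the 8 genes. Their SE rests on the spread over arms and days, which a choice for differences on every day can make smaller. The p-values of the 8 genes are therefore not fully independent of the choice. From day 6 to day 9, 39.9% of all genes passed the test (18.9% higher and 21% lower on day 9), and of the 8 genes 2 rose (Begain and the Kctd12 entry) and 2 fell (Lrp2 and Fabp3). From day 9 to day 12, 0.654% of all genes passed (0.526% higher and 0.128% lower on day 12) and none of the 8 did (limma with Benjamini-Hochberg, 0 of 8). Of the 8 genes Lrp2, Fabp3, Kctd12 and Prkcb had an unadjusted p under 0.05 there, as did 14.1% of all genes. The p-values measure how a day's difference spreads over the arms, since replicates were merged before deposition.

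Lrp2 fell between days 6 and 9 in all 3 arms, with differences of -1.60 with the Hnrnpk hairpin, -1.47 with the lincRNA-p21 hairpin and -0.80 with the control hairpin (mean -1.29, SE 0.16, limma adjusted p = 0.000596). It then differed by 0.89, 0.92 and 0.55 in those arms between days 9 and 12 (mean 0.79, SE 0.16, limma adjusted p = 0.0767), a value that passed the test without the control day 6 library (limma adjusted p = 0.0189) or the Hnrnpk day 6 library (0.0446). Kctd12 and Prkcb also passed between days 9 and 12 without the control day 6 library, at -2.32 and -0.54 (limma adjusted p = 0.0377 and 0.0498). Fabp3 fell between days 6 and 9 in all 3 arms too, with differences of -1.69 with the Hnrnpk hairpin, -1.79 with the lincRNA-p21 hairpin and -1.12 with the control hairpin (mean -1.53, SE 0.33, limma adjusted p = 0.0069). From day 9 to day 12 it differed by 1.84 with the Hnrnpk hairpin, 0.55 with the lincRNA-p21 hairpin and -0.14 with the control hairpin (mean 0.75, SE 0.33, limma adjusted p = 0.353). Lrp2 and Fabp3, both higher with the Hnrnpk hairpin, thus had their lowest Hnrnpk signal on day 9.

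Begain rose between days 6 and 9 in all 3 arms, by 1.33 with the Hnrnpk hairpin, 1.27 with the lincRNA-p21 hairpin and 1.05 with the control hairpin (mean 1.22, SE 0.12, limma adjusted p = 0.000305). The call was kept in all 9 fits that left out 1 library. Between days 9 and 12 Begain was at 0.28 (limma adjusted p = 0.363), and it was lower with the Hnrnpk hairpin than with the control hairpin on each day.

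The Kctd12 entry rose between days 6 and 9 (mean 2.71, SE 0.72, limma adjusted p = 0.0175), by 3.06 with the Hnrnpk hairpin, 4.71 with the lincRNA-p21 hairpin and 0.35 with the control hairpin. The call was lost when the Hnrnpk day 9, lincRNA-p21 day 6 or lincRNA-p21 day 9 library was left out (limma adjusted p = 0.0802, 0.0571 and 0.0801), and without the Hnrnpk arm (limma adjusted p = 0.0738). With the sum of Kctd12 and AC102815.1 the direction turned, to -0.74 (limma adjusted p = 0.0211). The direction between days 6 and 9 thus depends on how the overlapping genes are counted. Between days 9 and 12 the entry differed by -2.32 (limma adjusted p = 0.217) and the sum by -0.72 (limma adjusted p = 0.182), with neither past the test.

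The other genes did not pass the test between days 6 and 9. Negr1 stood at -0.37 (SE 0.16, limma adjusted p = 0.0951), with the same sign in all 3 arms. Prkcb stood at 0.24 (SE 0.15, limma adjusted p = 0.234), Htra3 at -0.23 (SE 0.25, limma adjusted p = 0.492) and Nkx2-3 at 0.04 (SE 0.19, limma adjusted p = 0.879). Without the control day 6 library Prkcb, Htra3 and Negr1 passed, at 0.41, -0.55 and -0.50 (limma adjusted p = 0.039, 0.0491 and 0.0369). The highest Nkx2-3 signal was 1.11 times the lowest with the Hnrnpk hairpin, the smallest such ratio of the 8 genes in that arm.

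**Figure D4:**
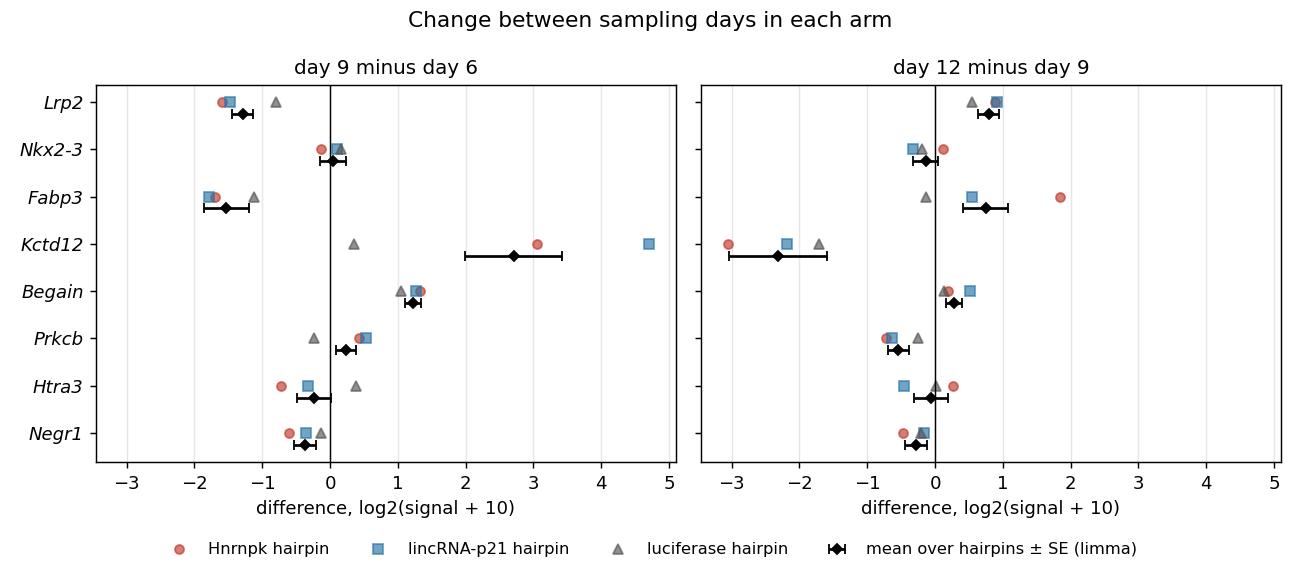
Differences in log2 of signal plus 10 between days 9 and 6 (left) and days 12 and 9 (right) for the 8 genes. Coloured points are the single arms, and black diamonds with bars are the mean over the 3 arms ± SE from limma, with Lrp2 (-1.29) and Fabp3 (-1.53) on the left side and Begain (1.22) on the right side of 0 between days 6 and 9.

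Relatives and known partners of the 8 genes, none of them among the 8, were read in the same comparison as 9 lists. Of 104 such genes tested 4 rose and 10 fell with the Hnrnpk hairpin against the control (13.5%), close to the 12.5% of all genes that passed (limma with Benjamini-Hochberg). Their median difference was -0.06, against 0 over all genes. With the lincRNA-p21 hairpin none of the 104 passed by limma, where 0.00797% of all genes did and 13.8% had an unadjusted p under 0.05.

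Of the LDL receptor family and its endocytic partners 2 of 18 rose and 3 fell. Cubn encodes cubilin, which works together with megalin in protein uptake by kidney and gut epithelium. Its signal was 270, 81 and 108 with the Hnrnpk hairpin, 108, 49 and 39 with the lincRNA-p21 hairpin, and 92.5, 42 and 56.5 with the control hairpin, a rise of 1.03 (SE 0.20, limma adjusted p = 0.0153). The Hnrnpk library was the highest of its day on all 3 days, as for Lrp2. Lrp11, a membrane protein of the same family, rose by 1.19 (SE 0.14, limma adjusted p = 0.00357), with a signal of 271, 197.5 and 306 with the Hnrnpk hairpin, 300, 174 and 279.5 with the lincRNA-p21 hairpin, and 104, 76 and 149 with the control hairpin. Unlike Lrp2, Lrp11 stood about as high with the lincRNA-p21 hairpin (1.14, limma adjusted p = 0.0603). Dab2, the endocytic adaptor that binds the megalin tail, fell (-0.62, limma adjusted p = 0.024), and so did the scaffold gene Gipc1 (-0.54, limma adjusted p = 0.0111). Lrp1b, another large receptor of the family, fell (-0.96, limma adjusted p = 0.0487). With the lincRNA-p21 hairpin Dab2 was at -0.52, Gipc1 at 0.04 and Lrp1b at -0.1, none past the test.

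Of the NK homeobox genes 2 were tested beside Nkx2-3, and none passed. Nkx2-9 stood at 130.5, 34 and 22 with the Hnrnpk hairpin, 37, 20 and 17.5 with the lincRNA-p21 hairpin, and 23, 10 and 17 with the control hairpin (1.16, SE 0.34, limma adjusted p = 0.0612), and passed without the variance trend (limma adjusted p = 0.0462). None of the 4 intracellular lipid-binding proteins tested beside Fabp3 passed (0 at an unadjusted p under 0.05), with differences of 0.10 for the retinoic acid carrier Crabp1 (limma adjusted p = 0.81) to 0.20 for Fabp5 (limma adjusted p = 0.493). Of 17 genes of fatty acid uptake and oxidation 1 rose and 2 fell: the acyl-CoA synthetase gene Acsl3 (0.50, limma adjusted p = 0.0239), and Cpt2 of mitochondrial import (-0.56, limma adjusted p = 0.0143) and the transporter family gene Slc27a3 (-0.48, limma adjusted p = 0.0235).

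Of 17 postsynaptic scaffold genes 1 fell and none rose. It was Dlg4, which encodes PSD-95, the binding partner of Begain, at 980, 844 and 1013 with the Hnrnpk hairpin, 1120, 968.5 and 1200.5 with the lincRNA-p21 hairpin, and 1597, 1337.5 and 1611 with the control hairpin. The fall was -0.67 (SE 0.09, limma adjusted p = 0.00403), and the Hnrnpk libraries lay entirely below the control libraries, as in 8.52% of all genes. The lincRNA-p21 libraries did so too, as in 4.21% of all genes, with a difference of -0.46 (limma adjusted p = 0.105).

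Of 19 KCTD and GABA-B receptor genes 2 fell, Kctd17 (-0.58, limma adjusted p = 0.0107) and Kctd2 (-0.45, limma adjusted p = 0.0182), and none rose. Gabbr1, which encodes a GABA-B receptor subunit, was at -0.36 (limma adjusted p = 0.13), and Kctd12b, the closest namesake of Kctd12, at 0.09 (limma adjusted p = 0.667). Of 12 other genes of the protein kinase C superfamily none passed by limma, and 3 had an unadjusted p under 0.05. Prkch, which encodes the eta isoform, had the largest difference of them, with a signal of 112, 233.5 and 359.5 with the Hnrnpk hairpin, 104.5, 184 and 335.5 with the lincRNA-p21 hairpin, and 37.5, 116.5 and 416.5 with the control hairpin (0.70, SE 0.28, limma adjusted p = 0.144). Its Hnrnpk library was above the control on days 6 and 9 and below it on day 12. Prkca, of the same calcium-dependent class as Prkcb, was at 0.08 (limma adjusted p = 0.79). The HtrA family genes Htra1 (0.47, limma adjusted p = 0.0556) and Htra2 (-0.15, limma adjusted p = 0.46) did not pass. Of 13 neural adhesion genes, including Lsamp of the IgLON family at -0.67 (limma adjusted p = 0.129), 1 rose and 2 fell. Nrcam was at 0.91 (limma adjusted p = 0.0132), and the synaptic adhesion genes Cadm3 and Cadm2 were at -0.84 (limma adjusted p = 0.0119) and -0.47 (limma adjusted p = 0.0467).

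These calls rested on single libraries to different degrees. Of the 13 named relatives that passed, 12 still passed by limma without the control day 6 library, 10 without control day 12 and 4 without control day 9. Gipc1, which was past the limit of 4 genes per list, is not among the 13, and its call was not followed through these fits. Without the Hnrnpk day 6, day 9 or day 12 library 11, 5 and 7 still passed, and without the lincRNA-p21 day 6, day 9 or day 12 library 11, 8 and 10 did. With a whole day left out, 12 still passed without day 6, Lrp11 and Dlg4 without day 12, and 0 without day 9, where the limma adjusted p of Dlg4 was 0.106 (25 of all genes passed there). Lrp11, Dlg4 and Nrcam kept their calls in every fit that left out 1 library. Cubn lost its call without Hnrnpk day 12 or control day 9, and Lrp1b, among all these fits, kept its call only without Hnrnpk day 9 or lincRNA-p21 day 12. The Lrp1b call was also lost with 1 added (limma adjusted p = 0.0529), and the Cadm2 call without the variance trend (0.0504) and at a minimum mean of 100 (0.0503).

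**Figure D5:**
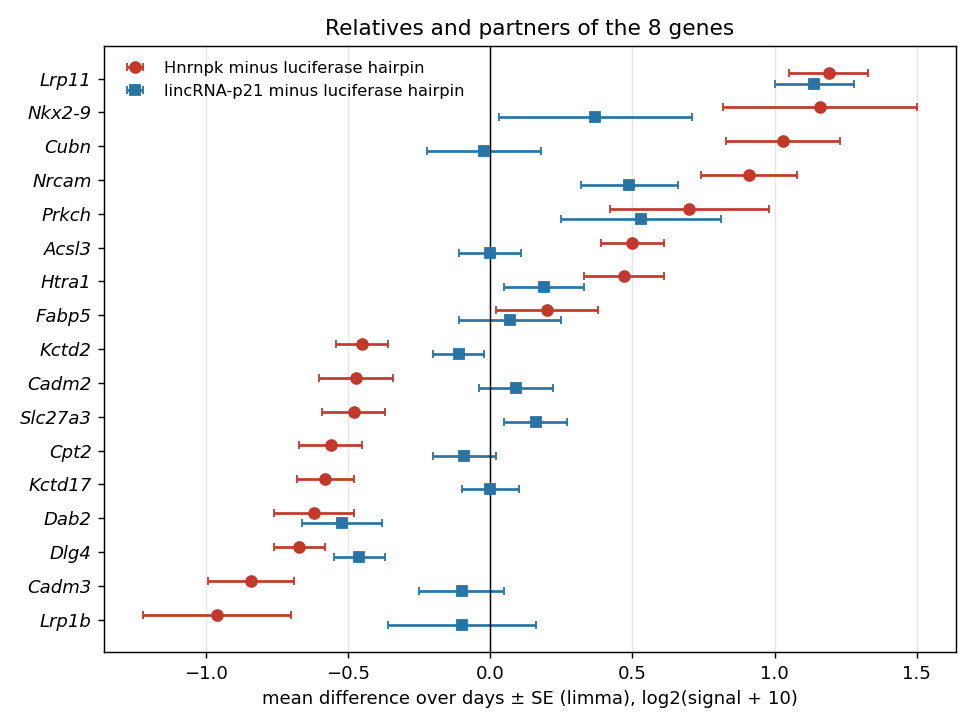
Mean differences over the 3 days ± SE (limma) in log2 of signal plus 10 for the 17 named relatives, for the Hnrnpk hairpin (red circles) and the lincRNA-p21 hairpin (blue squares), each minus the luciferase hairpin. Lrp11 lies near 1.2 in both arms, while Cubn is at 1.03 with the Hnrnpk hairpin and -0.02 with the lincRNA-p21 hairpin.

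The 8 genes were set against other genes by Pearson's r of log2(signal + 10) over the 9 libraries, as a description, since all genes share those libraries. Candidates were named genes whose values spanned at least 1 on that scale. The choice of the genes by the same Hnrnpk and control libraries already pulls r among them in this way, positive within a direction and negative between directions. Among the 3 higher genes r was 0.76 to 0.95, and among the 5 lower genes 0.41 to 0.91. Between a higher and a lower gene it was -0.95 to -0.56. Kctd12 and Htra3 had the lowest r of the lower genes, and Lrp2 and Fabp3 the highest r of the higher ones.

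The course of Prkcb was closest to that of Hnrnpk itself, the target of the hairpin (r = 0.957), followed by Kdelc2 (0.956) and Thra, a thyroid hormone receptor (0.942). Hnrnpk was low in the same libraries whose low signal chose Prkcb, so the choice already raises that r. The same holds for any other gene that differed between those arms. Lrp2 was closest to Ivl, a cornified envelope protein (0.972), Des, the muscle intermediate filament desmin (0.97), and Cyfip2 (0.961). Nkx2-3 was closest to Rasgrp3 (0.972), the lipid transfer protein gene Pltp (0.964), and Ereg, an EGF receptor ligand (0.945). Ereg had a signal of 648.5, 327 and 288.5 with the Hnrnpk hairpin, 118, 92 and 79.5 with the lincRNA-p21 hairpin, and 70.5, 69.5 and 81.5 with the control hairpin. Fabp3 was closest to the galectin gene Lgals1 (0.981), Atp6v1d (0.977) and Dse (0.974).

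Among the lower genes, Begain was closest to Macrod1 (0.985) and Ccdc158 (0.975). Macrod1, an ADP-ribose hydrolase, had a signal of 224, 412 and 447.5 with the Hnrnpk hairpin, 415.5, 603 and 779 with the lincRNA-p21 hairpin, and 552.5, 1036 and 1239.5 with the control hairpin, the same order of arms on each day as Begain. Htra3 was closest to genes of secreted matrix proteases, Mmp2 (0.97) and Adamts2 (0.965), and to Klhl5 (0.964). Negr1 was closest to Gpm6b, a membrane glycoprotein of neural cells (0.988), the Notch target Hey1 (0.984) and Ttc7 (0.978). Kctd12 was closest to Armcx4 (0.939), Tha1 (0.913) and the matrix protein gene Aspn (0.901), the lowest values of the 8 genes.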

How the data were processed

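Gene-level values of 9 RNA sequencing libraries were used. Per the labels, the authors merged replicates and deposited normalised values, used here as a signal. Per the submitters' processing notes, RSEM 1.2.12, Bowtie 1.0.1 and the build mm10 were used, without their roles. No source used here says how the signal was scaled. Some high values recur exactly between libraries. Vim took only the values 118715, 90534 and 62353 over the 9 libraries, and Pou5f1 was at 44876 in every day 9 library. Fn1 was at 48139 and at 51338 in the Hnrnpk arm and again in the control arm. Whether the columns had been matched to each other by rank was not tested, so the sizes of differences at such high signal are uncertain. This deposited signal moves in steps of 0.5 and all columns share the highest value of 118715, so it is no read count, and depth and the precision it gives are unknown. Of 12550 gene identifiers 12470 are in GENCODE M21, and 0 value columns belonged to no library.

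With 10 added, log2 values of genes with a mean of at least 20 (12541, with 9 below) were fitted in R 4.3.3 with limma 3.58.1, with terms for arm and day (4 residual degrees of freedom) and a trend of variance on mean signal, and p-values were adjusted by Benjamini-Hochberg at 0.05. Nothing in the labels says that the merged replicates were separate cultures. The fit was tested on simulated data. The alternatives were other added values, filters, no trend, a median-ratio rescaling, and leaving out libraries, days or an arm.

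The 8 genes, the lists and the promoter letters were chosen with earlier results of these data known. Named relatives are up to 4 genes per list past 0.05 with the Hnrnpk hairpin by size, or else the 1 with the largest difference. AC102815.1, Gipc1, Crabp1, Gabbr1, Kctd12b, Prkca, Htra2, Lsamp and the single marker genes were named after their values were seen. Named likenesses are the 3 genes with the highest r, leaving out clone names. A few genes of the lists and likenesses are not reported here and were left out of the list counts.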

Additional observations from a re-analysis of the deposited data

Results flagged for a closer look

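Htra3 differed from control with the lincRNA-p21 hairpin by 0.61 on day 6 and -0.58 on day 12, opposite signs that were not tested. Between days 6 and 9 it moved by -0.73 with the Hnrnpk hairpin, -0.33 with the lincRNA-p21 hairpin and 0.38 with the control hairpin, and between days 9 and 12 by 0.27 with the Hnrnpk hairpin and -0.46 with the lincRNA-p21 hairpin. Prkcb differed from control with the lincRNA-p21 hairpin by -0.52 on day 6 and 0.25 on day 9, which was not tested. Opposite differences were listed where each was at least 0.25 in size, with 1 library behind each value.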

How the results depend on the processing

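Every difference between the Hnrnpk and control arms of the 8 genes kept its direction under all alternatives. The genes were chosen to differ on every day, which largely fixes that outcome, so it is no check of them. With each library or day left out Lrp2 stayed within 2.82 to 3.21, Nkx2-3 2.86 to 3.05 and Fabp3 2.13 to 3.12. Of the lower genes Kctd12 stayed within -3.95 to -2.18, Begain -2.14 to -1.90, Prkcb -2.13 to -1.77, Htra3 -2.03 to -1.48 and Negr1 -1.89 to -1.52. Kctd12 was at -2.18 without control day 6 and -3.95 without control day 9. The counts over all genes moved too. For the Hnrnpk against the control arm, 1570 genes passed, and 25 to 3001 with a library or day left out (25 without day 9). For the lincRNA-p21 against the control arm 1 passed, 0 to 175 with a library or day left out, 0 with 50 added and 13 without the trend (limma, with 1695 and 1744 at unadjusted p under 0.05). Day 9 against day 6 gave 5008 genes, and 3062 to 5605 with a library left out. Day 12 against day 9 gave 82, and 1 to 421 with a library left out, 50 with 1 added and 11 without the Hnrnpk arm. Of the 8 genes, those at least 2-fold apart between the Hnrnpk and lincRNA-p21 arms on every day were 5, 5 to 7 with a day left out and 3 with 50 added. The cause of these shifts was not tested.

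Some directions over time turned. Nkx2-3 between days 6 and 9 went to -0.0034 with 50 added and to -0.02 to 0.15 with a library left out (-0.0019 without control day 6, -0.00059 without control day 9 and -0.02 without lincRNA-p21 day 9). Htra3 went to 0.03 between days 6 and 9 without the Hnrnpk arm, and to -0.27 to 0.17 between days 9 and 12 with a library left out (0.07, 0.01 and 0.17 without control day 9, lincRNA-p21 day 9 and lincRNA-p21 day 12). Fabp5, set against control with the Hnrnpk hairpin, ranged over -0.09 to 0.44 with a library or day left out, below 0 without day 12 or either of its Hnrnpk and control libraries. Kctd12 between days 6 and 9 turned to -0.74 when summed with AC102815.1, an alternative chosen after seeing the data, which also moved its difference between the Hnrnpk and control arms to -0.66. Nkx2-3, with a low mean, has no value under the minimum of 100. No fit with a replicate block was made, because the labels give no replicate numbers and each arm and day has 1 merged library. With the day term in the model, the arms are compared within days.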
